A study of Mus musculus with 5 samples.

Results

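Of the 5 mouse RNA-seq libraries labelled as visceral fat, 2 held almost no Gpx5, a secreted glutathione peroxidase of the epididymis, and those 2 libraries are described here. They were chosen on their measured Gpx5 level, under 1000 CPM (counts scaled to the same library total, the usual counts-per-million unit). Gpx5 stood at 0.0788 CPM (2 counts) in diabetes 2 and at 19.6 CPM (545 counts) in curcumin-treated 1. The other 3, called Gpx5-rich here, held 29812 (control 1), 31116 (diabetes 1) and 55412 CPM (curcumin-treated 2). The limit of 1000 CPM lay far from every library.

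All libraries came from male C57BL/6 mice, and the labels leave unsaid whether each library is a different animal. Diabetes 2 belongs to the group given streptozotocin, which destroys insulin-producing cells, as a single intraperitoneal injection of 70 mg/kg when 2 days old, then a high-fat diet (60% of its energy as fat) from week 3 for 8 weeks, and vehicle. Curcumin-treated 1 belongs to the group with the same injection and diet that received curcumin, a compound of turmeric, by gavage at 50 mg/kg on each of 28 days from week 11 of age. The remaining libraries were 1 control on ordinary chow with vehicle, 1 further diabetic library with vehicle and 1 further curcumin-treated library. Each side of the comparison is a single library, picked from the same values that are compared. It has no replicate, no test was made, and curcumin treatment, the animal or library and the tissue sampled cannot be told apart. Folds and shares carry 95% intervals that cover counting error only, because there is no replicate. The reads had no molecular identifiers, so copies of the same molecule count as separate reads in these intervals.

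White fat stores triglyceride in adipocytes, which take up fatty acids, build and break down lipid droplets and secrete hormones such as leptin and adiponectin. In male mice the gonadal fat pad lies against the epididymis and the vas deferens, the muscular duct that propels sperm by rhythmic contraction. The epithelium of this duct differs along its length, with secretory genes of the first segments replaced by others toward the vas deferens, and the posterior Hox genes pattern its far end.

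Total counts were 25378046 in diabetes 2 and 27814957 in curcumin-treated 1, and 25451001 to 42422890 in the other libraries. Where a gene had 0 counts, as many as 3 remained possible, which is 0.118 CPM for diabetes 2 and 0.108 CPM for curcumin-treated 1. Mitochondrially encoded genes took 4.31% and 4.93% of counts. Curcumin-treated 1 held counts for 46369 genes and diabetes 2 for 31232. Of the 18040 genes detected in curcumin-treated 1 and not in diabetes 2, 14223 had at most 5 counts. Across the 17152 genes with a mean of at least 1 CPM over the pair, log2(CPM + 1) of the pair correlated at r = 0.738. These genes are not independent replicates, and the same genes served for every pair of libraries. Curcumin-treated 1 correlated with the 3 Gpx5-rich libraries at 0.786 to 0.826, diabetes 2 at 0.647 to 0.664, and those 3 with each other at 0.933 to 0.958.

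Among 17152 genes with a mean of at least 1 CPM over the pair, 1399 were at least 4-fold higher in diabetes 2 (8.16%) and 2447 at least 4-fold higher in curcumin-treated 1 (14.3%). The median log2 ratio of diabetes 2 over curcumin-treated 1 was −0.15. These shares are the background for every count of listed genes given here, and nothing beyond a description is read from the counts. Of the genes higher in diabetes 2, 1008 (72.1%) were also at least 4-fold above all of the other 4 libraries. Of those higher in curcumin-treated 1, 704 (28.8%) were, and in 997 (40.7%) a Gpx5-rich library was at least as high as curcumin-treated 1. Over all tested genes, 1009 (5.88%) stood at least 4-fold above every other library in diabetes 2 and 706 (4.12%) in curcumin-treated 1. These are almost all the genes just counted, because every other library includes the second library of the pair. They are therefore no separate background for the 72.1% and 28.8%.

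**Figure D1:**
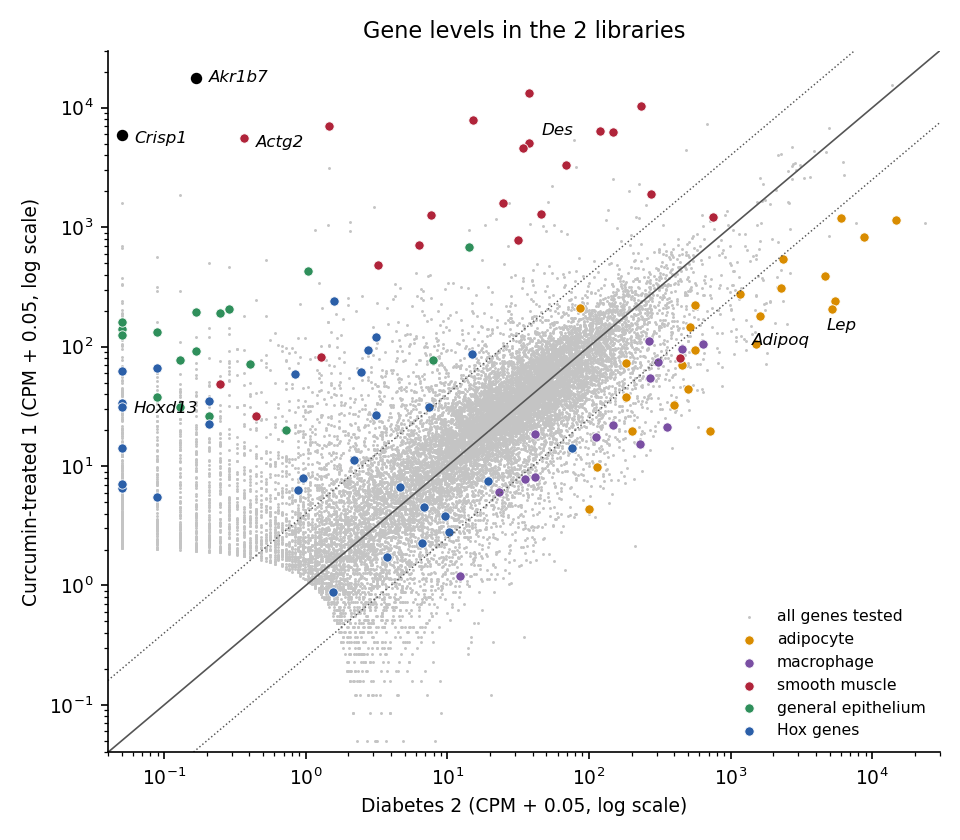
CPM of each of the 17152 tested genes in diabetes 2 (x axis) and curcumin-treated 1 (y axis), both with 0.05 added and on log scales; the solid line marks equal levels and the dotted lines a 4-fold difference. The macrophage genes and the adipocyte genes other than Slc2a4 lie below the line, and the general epithelial genes and most smooth muscle genes lie above it.

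Adipocyte genes filled diabetes 2 and were present at a far lower level in curcumin-treated 1. The 24 genes of the adipocyte list took 5.84% of diabetes 2 (5.83% to 5.84%, Wilson interval). In curcumin-treated 1 they took 0.638% (0.636% to 0.641%), against 0.0350% to 0.0949% in the other libraries. In curcumin-treated 1 the median member was at 10.5% of its level in diabetes 2, and 20 of 24 were at least 4-fold higher in diabetes 2. Their median log2 ratio was 3.25, beside −0.15 for all tested genes. In bulk tissue, fewer adipocytes and less RNA per adipocyte cannot be told apart.

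Among secreted products, leptin (Lep), the satiety hormone made by adipocytes, stood at 5454 CPM in diabetes 2, 241 in curcumin-treated 1, 10.3 in control 1, 3.69 in diabetes 1 and 7.19 in curcumin-treated 2. It was 22.6-fold higher in diabetes 2 than in curcumin-treated 1 (22.1 to 23.2), and both were above the Gpx5-rich libraries. Adiponectin (Adipoq), the insulin-sensitizing hormone, was at 1610, 180, 15.1, 1.34 and 1.41 CPM in the same order, which is kept wherever 5 values are listed, an 8.97-fold difference (8.71 to 9.24). Smaller folds were found for resistin (Retn, 514 against 145 CPM) and adipsin (Cfd, the complement factor D protease, 558 against 221 CPM). Haptoglobin (Hp), an acute-phase protein that fat also secretes, was the fourth most counted named nuclear gene of diabetes 2 at 8504 CPM, against 830 CPM.

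The promoter of Lep is shown because leptin is the hormone whose level differs most within this list's secreted products. The sequence is the 200 bases before the RefSeq start (GRCm38.p6, chr6:29060021-29060220, plus strand), and its capitals mark TTGCGCAA, the palindrome bound by C/EBP factors of adipocyte differentiation, 55 bases before the start.
Lep: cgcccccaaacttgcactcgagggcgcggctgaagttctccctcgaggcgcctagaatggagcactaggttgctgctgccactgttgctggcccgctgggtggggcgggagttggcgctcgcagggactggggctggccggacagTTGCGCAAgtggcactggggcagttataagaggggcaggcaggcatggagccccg
The motif was chosen after the sequences were seen and was searched on both strands from 250 bases before to 50 after each start. It lies in 60 of 32851 windows (0.183%) and in 1 of the 26 windows matched to 17 of the 24 adipocyte genes, the one at Lep. The match is a description of letters and no evidence of binding.

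Genes of fatty acid uptake and storage differed by similar amounts. Scd1, the desaturase that makes oleate, was the most counted named nuclear gene of diabetes 2. Its level was 23746 CPM in diabetes 2, 1078 in curcumin-treated 1, 400 in control 1, 217 in diabetes 1 and 161 in curcumin-treated 2, so it was 22.0-fold higher in diabetes 2 than in curcumin-treated 1 (21.8 to 22.3). Lipoprotein lipase (Lpl), which frees fatty acids from circulating triglyceride, stood at 14802 against 1147 CPM. The fatty acid transporter Cd36 stood at 5174 against 206 CPM, and the fatty acid chaperone Fabp4 at 5982 against 1184 CPM. Car3, a carbonic anhydrase abundant in rodent fat, was at 8809, 824, 103, 23.7 and 14.2 CPM over the 5 libraries. Every gene of this group was lower in the 3 Gpx5-rich libraries than in curcumin-treated 1.

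Lipid droplet proteins and regulators completed the list. The droplet coat Plin1 was at 1504 against 106 CPM, Plin4 at 2358 against 539 CPM and the droplet-fusing Cidec at 4661 against 391 CPM. Mest, a gene known to follow fat mass expansion, had the widest gap of the list, with 718 CPM in diabetes 2, 19.7 CPM in curcumin-treated 1 and 4.14 to 6.34 CPM elsewhere (36.4-fold between the pair, 33.4 to 39.6). The master regulator Pparg was at 114 against 9.71 CPM and its partner Cebpa at 558 against 94.4 CPM. The glucose transporter Slc2a4, which muscle also makes, was the exception. It stood at 86.3 CPM in diabetes 2, 212 in curcumin-treated 1, 15.5 in control 1, 4.71 in diabetes 1 and 9.55 in curcumin-treated 2, the only adipocyte gene of the 24 that was higher in curcumin-treated 1.

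Wider lipid pathways followed in graded steps. In curcumin-treated 1 the median gene of fatty acid and triglyceride synthesis was at 16.6% of its level in diabetes 2, that of lipolysis and lipid droplets at 20.3% and that of mitochondrial and peroxisomal fatty acid oxidation at 46.4%. Of the 18 synthesis genes 10 were at least 4-fold higher in diabetes 2, as were 12 of 19 in lipolysis and 2 of 19 in oxidation. Over all tested genes this share was 8.16%, and the oxidation count is near it. In lipolysis 1 gene was at least 4-fold higher in curcumin-treated 1. Dgat2, which adds the last fatty acid of triglyceride, was at 2486 against 156 CPM. Scd2, a related desaturase, was at 984 against 501 CPM, and its levels in the other libraries, 863 to 987 CPM, covered that of diabetes 2. Acadm, a medium-chain dehydrogenase of mitochondrial oxidation, was at 501 against 123 CPM. Ucp1, the uncoupling protein of brown fat, named after its value was seen, had 7 counts in diabetes 2 and 4 in curcumin-treated 1.

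Macrophage genes also stood higher in diabetes 2. The macrophage list (15 genes) took 0.294% of its counts and 0.0558% of curcumin-treated 1, and 11 members were at least 4-fold higher in diabetes 2. Lyz2, a lysozyme of macrophages, was at 640 CPM in diabetes 2, 105 in curcumin-treated 1, 25.2 in control 1, 26.6 in diabetes 1 and 69.5 in curcumin-treated 2. The complement subunit C1qb was at 457 against 95.4 CPM. Genes of lipid-associated macrophages, the cells that gather around dying adipocytes in obesity, took 0.761% against 0.152%, and 11 of 13 were at least 4-fold higher in diabetes 2. The galectin Lgals3 stood at 1489 against 134 CPM and the protease Ctsd, made by many cells, at 2148 against 754 CPM. The median level in curcumin-treated 1 was 20.1% of diabetes 2 for the macrophage list and 11.3% for the lipid-associated list.

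Other supporting cells differed less. The median gene of fibroblasts and adipose progenitors was at 29.0% in curcumin-treated 1, that of the extracellular matrix at 44.6%, that of blood endothelium at 54.3%, that of T and NK cells at 96.6%, that of pericytes at 166%, that of mast cells at 171% and that of lymphatic endothelium at 176%. The collagen Col3a1 was at 1512 against 265 CPM and the matrix proteoglycan Dcn at 1152 against 385 CPM. The endothelial adhesion molecule Pecam1 was at 105, 42.4, 35.0, 8.96 and 14.6 CPM over the 5 libraries. Mast cell proteases were found in this pair and hardly elsewhere: Tpsb2, a tryptase, stood at 22.1 CPM in diabetes 2, 51.0 in curcumin-treated 1, 0.111 in control 1, 0 in diabetes 1 and 0.236 in curcumin-treated 2. Mcpt4, a chymase, was at 17.4 and 46.7 CPM in the pair and at most 0.0471 CPM in the others.

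**Figure D2:**
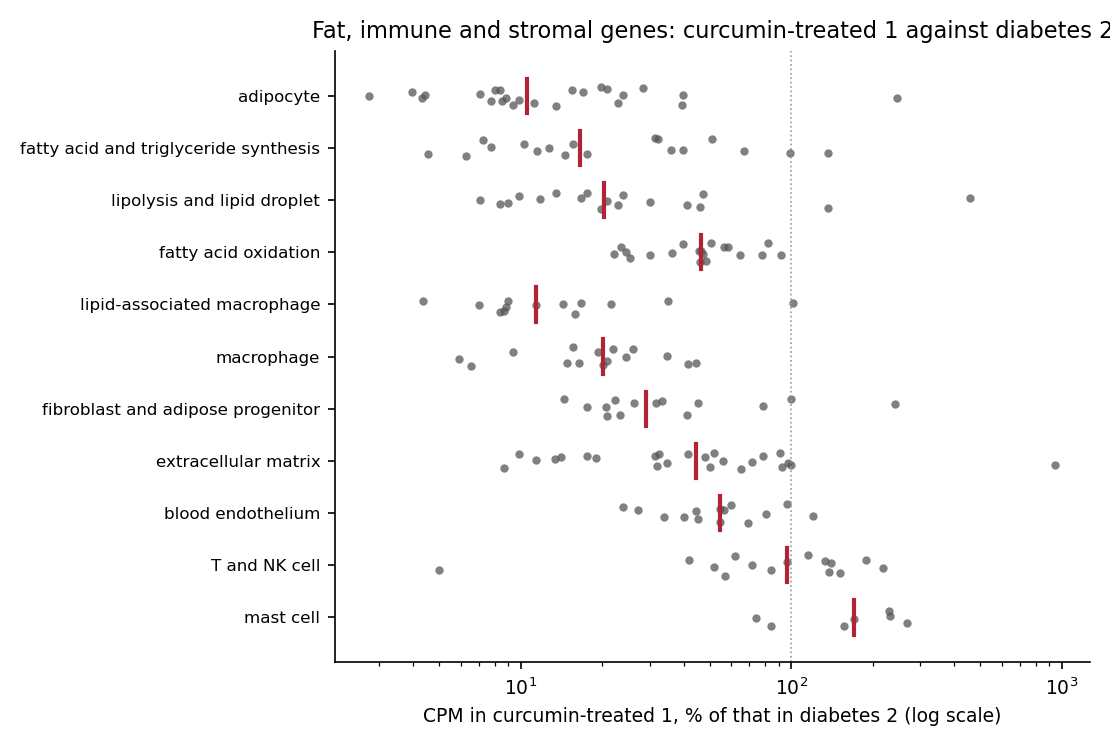
Level of each listed gene in curcumin-treated 1 as a percentage of its level in diabetes 2 (x axis, log scale); each point is a gene, spread vertically for visibility, and the red bar is the median of the list. Among the 11 lists drawn, the medians run from 10.5% for adipocyte genes through 54.3% for blood endothelium to 171% for mast cells.

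Smooth muscle genes filled curcumin-treated 1. The 22 genes of the smooth muscle list took 7.93% of its counts (7.92% to 7.94%), 0.228% of diabetes 2 and 0.231% to 0.377% of the other libraries. Of the 22, 20 were at least 4-fold higher in curcumin-treated 1 and also at least 4-fold above every other library, with a median log2 ratio of −6.03. Of the other 2, 1 lay within 4-fold and 1 went the other way. That 1 was at least 4-fold higher in diabetes 2 than in every other library, and in curcumin-treated 1 it was at 18.4% of its diabetes 2 level. Curcumin-treated 1 stood apart from all 4 other libraries in this share.

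Contractile proteins led the list. Des, which encodes desmin, the muscle intermediate filament, stood at 37.9 CPM in diabetes 2, 5046 in curcumin-treated 1, 103 in control 1, 36.0 in diabetes 1 and 257 in curcumin-treated 2. It was 133-fold higher in curcumin-treated 1 than in diabetes 2 (125 to 142). The smooth muscle myosin Myh11 was at 37.4, 13342, 318, 117 and 185 CPM, and was the second most counted named nuclear gene of curcumin-treated 1 after Akr1b7. The actin Acta2, made by vascular and visceral muscle, stood at 10340 against 234 CPM, and calponin (Cnn1) at 7083 against 1.42 CPM.

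The enteric actin Actg2, the form typical of visceral rather than vascular muscle, had another pattern. It was at 0.315 CPM (8 counts) in diabetes 2, 5538 in curcumin-treated 1, 1363 in control 1, 1035 in diabetes 1 and 1225 in curcumin-treated 2. It was nearly absent from diabetes 2 alone, whereas Acta2 was at 196 to 561 CPM in every library but curcumin-treated 1. Tagln, another smooth muscle protein, reached 81.5 CPM in curcumin-treated 1 and at most 2.12 CPM elsewhere. How reads shared between genes were counted is not stated, and its part in this low level was not tested. The myosin light chain kinase Mylk stood at 6278 against 148 CPM, and Myocd, the coactivator that switches on smooth muscle genes, at 26.1 against 0.394 CPM. Synpo2, an actin-binding protein of muscle, differed little, at 1220 against 746 CPM.

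The promoter of Myl9, the regulatory myosin light chain of smooth muscle (4642 against 34.4 CPM), is shown because it alone among the list's matched windows holds a CArG box, the site of serum response factor. The 200 bases precede the RefSeq start (GRCm38.p6, chr2:156775264-156775463, plus strand), and capitals mark the box, 161 bases before the start.
Myl9: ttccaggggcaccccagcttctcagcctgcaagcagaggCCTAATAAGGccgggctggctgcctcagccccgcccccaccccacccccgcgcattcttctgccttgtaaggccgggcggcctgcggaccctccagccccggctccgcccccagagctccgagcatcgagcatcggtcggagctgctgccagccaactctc
The box was found in 1 of 21 windows of the list, which matched 17 of its 22 genes, and in 535 of all 32851 windows (1.63%). The other windows lack these letters, which says nothing about the factor.

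Genes that excite or relax smooth muscle were uneven. Of 23, 11 were at least 4-fold higher in curcumin-treated 1, and Oxtr, the oxytocin receptor, was at least 4-fold higher in diabetes 2. P2rx1, the ATP-gated channel through which sympathetic nerves contract the vas deferens, stood at 1.10 CPM in diabetes 2, 955 in curcumin-treated 1, 1.67 in control 1, 0 in diabetes 1 and 0 in curcumin-treated 2. It was 865-fold higher in curcumin-treated 1 than in diabetes 2 (599 to 1300). The muscarinic receptor Chrm3 was at 15.1 against 1.30 CPM, and Cacna1c, the L-type calcium channel, at 134 against 4.30 CPM. Chrm3 and Cacna1c were picked after their values were seen. Oxtr was at 385, 14.2, 59.5, 72.5 and 59.5 CPM over the 5 libraries, highest in diabetes 2 and lowest in curcumin-treated 1.

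**Figure D3:**
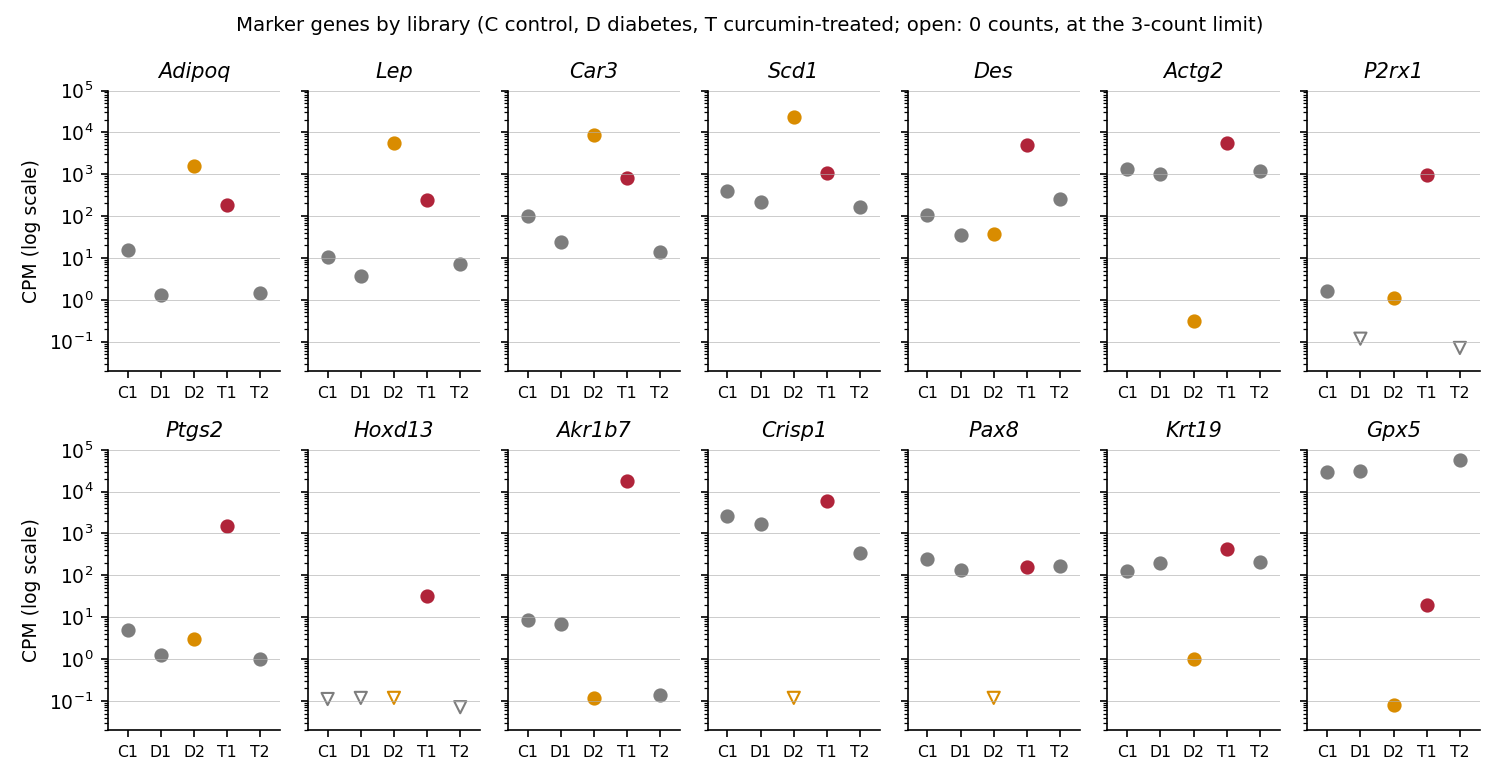
CPM (log scale) of 14 genes in the 5 libraries; C, D and T stand for control, diabetes and curcumin-treated, diabetes 2 is orange, curcumin-treated 1 is red and an open triangle marks 0 counts, drawn at the 3-count limit. Adipoq, Lep, Car3 and Scd1 are highest in diabetes 2, Des, Actg2, P2rx1, Ptgs2, Hoxd13, Akr1b7 and Crisp1 are highest in curcumin-treated 1, and Gpx5 is high in the other 3.

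Akr1b7, an aldo-keto reductase known as the vas deferens protein and also described in adrenal and fat, was the most counted named nuclear gene of curcumin-treated 1. It stood at 0.118 CPM (3 counts) in diabetes 2, 17874 in curcumin-treated 1, 8.70 in control 1, 6.76 in diabetes 1 and 0.141 in curcumin-treated 2. The ratio of curcumin-treated 1 to diabetes 2 was 151204, with a counting interval of 51739 to 733205. Its close relatives were low and not far apart: Akr1b8 was at 38.2 against 50.2 CPM and Akr1b3 at 9.71 against 18.8 CPM. Reads shared among these similar genes may have been split in counting, since the treatment of multiply aligned reads is not given in the sources used here.

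The Akr1b7 promoter is shown because this gene led curcumin-treated 1 and was almost absent from diabetes 2. Its 200 bases before the RefSeq start are from GRCm38.p6, chr6:34412162-34412361, plus strand, and capitals mark TGTTCT, a core motif of steroid hormone receptors, 100 bases before the start.
Akr1b7: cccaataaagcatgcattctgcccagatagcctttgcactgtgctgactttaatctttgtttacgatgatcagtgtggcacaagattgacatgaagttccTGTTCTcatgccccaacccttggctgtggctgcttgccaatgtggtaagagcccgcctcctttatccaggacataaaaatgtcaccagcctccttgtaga
Those letters are common, since they lie in 6233 of 32851 windows (19.0%), in 2 of 26 adipocyte windows and in 2 of 21 smooth muscle windows.

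The other listed genes of the later duct did not move together. Crisp1, a sperm-binding protein of the later epididymis, was at 0 CPM in diabetes 2, 5965 in curcumin-treated 1, 2610 in control 1, 1700 in diabetes 1 and 334 in curcumin-treated 2, at least 50463-fold higher in curcumin-treated 1 than in diabetes 2. Cd52, a surface glycoprotein that sperm acquire in the duct and that lymphocytes also make, stood at 55.0, 2196, 964, 391 and 255 CPM. The water channel Aqp9 was at 113 to 154 CPM in all libraries but diabetes 2 (3.74 CPM). The chloride channel Cftr did not follow them, with 26.6 to 34.3 CPM in the Gpx5-rich libraries, 3 counts in curcumin-treated 1 and 0 in diabetes 2. With Akr1b7, the 5 genes of this list took 2.62% of curcumin-treated 1, mostly as Akr1b7, 0.00589% of diabetes 2 and 0.0728% to 0.374% of the others.

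Genes of the first epididymal segments were scarce in both libraries, and Gpx5, on which the libraries were chosen, is a member of their list. Part of the contrast with the other libraries is therefore fixed by that choice. Without Gpx5 the other 17 genes held 7 counts in diabetes 2, 0.162% of curcumin-treated 1 and 4.77% to 6.62% of the Gpx5-rich libraries. Spink8, a protease inhibitor, made up nearly all of the share of curcumin-treated 1, at 0 CPM in diabetes 2, 1587 in curcumin-treated 1, 2098 in control 1, 2249 in diabetes 1 and 1486 in curcumin-treated 2. Without Gpx5 and Spink8 the share of curcumin-treated 1 was 0.00349% (0.00328% to 0.00372%), against 4.55% to 6.47% in the Gpx5-rich libraries.

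Genes shared by most epithelia were low in diabetes 2, where 9 of the 17 listed had at most 3 counts and 3 of these had none. All 17 members of the general epithelial list were at least 4-fold higher in curcumin-treated 1, with a share of 0.270% against 0.00251%. The Gpx5-rich libraries held 0.391% to 0.405%, and the median gene in curcumin-treated 1 was at 60.3% of their mean. Spint2, a protease inhibitor of epithelial surfaces, stood at 682 against 14.1 CPM, and the keratin Krt19 at 433 against 0.985 CPM. Pax2 and Pax8, transcription factors of the kidney and genital duct lineage named after their values were seen, were at 126 and 160 CPM in curcumin-treated 1 and at 0 in diabetes 2. All 8 basal cell genes were likewise at least 4-fold higher in curcumin-treated 1, where Krt5 was at 49.9 CPM against 0. Foxi1, a transcription factor of acid-secreting clear cells that was also named after its value was seen, was low in both, with 1.58 CPM and 0 against 46.8 to 69.4 CPM elsewhere.

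Prostaglandin genes were prominent in curcumin-treated 1. The 16 genes of prostaglandin and androgen handling took 2.16% of it, mostly as Akr1b7, 0.0319% of diabetes 2 and 0.129% to 0.136% of the others. Ptgs2, the inducible cyclooxygenase, was at 2.99 CPM in diabetes 2, 1472 in curcumin-treated 1, 4.88 in control 1, 1.22 in diabetes 1 and 0.990 in curcumin-treated 2, 492-fold higher in curcumin-treated 1 than in diabetes 2 (393 to 624). Ptgs1, the constitutive cyclooxygenase, was at 302 against 9.58 CPM, the prostaglandin E synthase Ptges at 691 against 26.8 CPM and the prostaglandin-degrading Hpgd at 1045 against 56.7 CPM. Slco2a1, the prostaglandin transporter, which is outside the list and was named after its value was seen, stood at 1591 CPM in curcumin-treated 1 and at 27.2 to 36.7 CPM elsewhere.

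Receptors and other synthases did not share that pattern. The receptor Ptger3 was at 57.6 CPM in diabetes 2, 3.56 CPM in curcumin-treated 1 and at most 0.259 CPM in the others, and Ptger2 and Ptgfr were also at least 4-fold higher in diabetes 2. The prostaglandin D synthase Ptgds was at 742 to 848 CPM in the Gpx5-rich libraries, 5.86 CPM in curcumin-treated 1 and 0 in diabetes 2. Srd5a2, which converts testosterone to dihydrotestosterone, followed Ptgds, with 105 to 185, 5.82 and 0 CPM.

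Hox genes, which give cells their position along the body axis and are numbered from the head end (group 1) to the tail end (group 13), differed between the pair, and groups 10 to 13 of clusters A and D were higher in curcumin-treated 1. Groups 10 to 13 summed to 258 CPM in curcumin-treated 1, 0.473 CPM (12 counts) in diabetes 2 and 2.36 to 16.6 CPM in the other libraries. Groups 1 to 9 summed to 817 CPM in curcumin-treated 1, 181 CPM in diabetes 2 and 1305 to 1753 CPM in the others. The sum over groups 10 to 13 was thus highest in curcumin-treated 1, while that over groups 1 to 9 was higher in the Gpx5-rich libraries.

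Hoxd13, the last gene of its cluster and a factor of the genital and limb ends of the body, had 869 counts (31.2 CPM) in curcumin-treated 1 and 0 counts in each of the others. Hoxd11 and Hoxd12 were also found in that library alone, at 33.5 and 7.08 CPM. Hoxa11, known from the vas deferens and uterus, was at 62.3 CPM there, 0.864 CPM in diabetes 1, 0.778 CPM in curcumin-treated 2 and 0 in control 1 and diabetes 2. Hoxa10 stood at 66.0 CPM there and at most 3.18 CPM elsewhere, and Hoxa13 at 14.1 CPM there and 0.236 CPM in curcumin-treated 2. Reads of antisense transcripts in these clusters cannot be separated with certainty, because the strand setting of the counting is not given in the sources used here. Not every gene of these groups was highest in curcumin-treated 1. Hoxc10 was at 1.69 CPM there and 8.27 CPM in curcumin-treated 2, Hoxc13 was at 0.144 and 0.613 CPM, and Hoxb13, which marks the prostate and the hindmost gut, had no count in either library of the pair.

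The middle of cluster B was instead lowest in diabetes 2, as were Hoxd8 and Hoxd9 of cluster D. Hoxd8 was at 14.9, 86.8, 231, 223 and 217 CPM over the 5 libraries. Hoxb8 was at 1.54 CPM in diabetes 2, 240 in curcumin-treated 1, 509 in control 1, 393 in diabetes 1 and 392 in curcumin-treated 2, and Hoxb6 at 3.07, 120, 260, 177 and 299 CPM. Cluster C leaned the other way: its sum was 122 CPM in diabetes 2 against 39.0 CPM in curcumin-treated 1, and Hoxc8 was the only Hox gene of the 30 tested that was at least 4-fold higher in diabetes 2 (76.4 against 14.2 CPM). Hoxc8 was at 18.7 to 51.7 CPM in the remaining libraries.

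**Figure D4:**
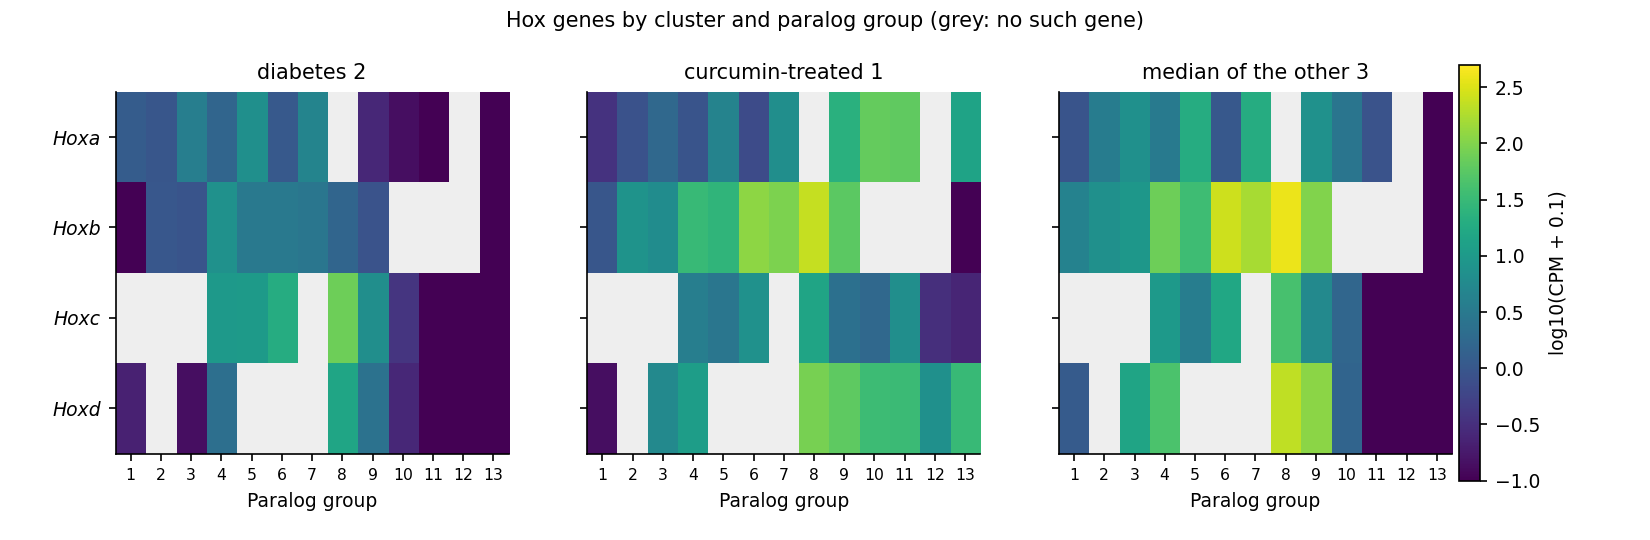
Level of each Hox gene, as log10(CPM + 0.1) on a colour scale, by cluster (rows) and paralog group from head end to tail end (columns), in diabetes 2, in curcumin-treated 1 and as the median of the other 3 libraries; grey marks positions with no gene. Groups 10 to 13 of clusters A and D are brighter in curcumin-treated 1 than in the other panels. Most of cluster B is darker in diabetes 2 than in the other panels.

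Other regional transcription factors were few and went both ways. Of 17 listed, 7 passed the limit of 1 CPM, and 3 of these were higher in diabetes 2. At least 4-fold differences were found for 2 in curcumin-treated 1 and 1 in diabetes 2, and 4 lay within 4-fold. The factors named here were all higher in curcumin-treated 1 and do not represent the list. Of the 9 with over 3 counts in diabetes 2, the lowest was at 24.7% of that level in curcumin-treated 1 and the median at 197%. Foxf2, a factor of gut and genital mesenchyme, was at 50.8 CPM in curcumin-treated 1, 0.158 CPM (4 counts) in diabetes 2 and 0 in the rest. Emx2, needed for the urogenital ducts, was at 113 CPM in curcumin-treated 1, 0.512 CPM in diabetes 2 and 54.1 to 91.4 CPM in the others. Barx1 and Nkx2-3, factors of stomach and intestinal mesenchyme, had 2 and 11 counts in curcumin-treated 1 and 0 in diabetes 2. Tbx15, a factor of some fat depots and limb muscle, had 24 counts in curcumin-treated 1 and 0 in diabetes 2.

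Lists for other organs were at low levels in both libraries. Seminal vesicle secretion genes other than Ceacam10, which carries most of that list, held 25 counts in diabetes 2 and 44 in curcumin-treated 1. Prostate genes held 0.0000670% and 0.000133% of counts, gut epithelium 0.000942% and 0.000536%, and sperm and testis genes 0.000244% and 0.000385%, against 0.0204% to 0.0232% for sperm and testis genes in the Gpx5-rich libraries. Liver genes reached 0.0161% in diabetes 2, mostly as Cyp2e1 (131 CPM), an oxidase that fat also makes, and Alb stood at 12.1 CPM there and 1.65 CPM in curcumin-treated 1.

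Skeletal muscle genes took 0.166% of curcumin-treated 1 and 0.00776% of diabetes 2, and 3 genes carried most of it. The skeletal actin Acta1 was at 1069 CPM in curcumin-treated 1 and 2.24 to 88.7 CPM elsewhere, the muscle creatine kinase Ckm at 294 CPM against at most 0.707 CPM, and the calcium-storing Casq1 at 253 CPM against at most 6.50 CPM. The myosins of fast skeletal fibres did not accompany them, since Myh1, Myh2 and Myh4 were at 0.0719, 0.611 and 0.0719 CPM. Casq1 and the myosins were named after their values were seen. Of the heart muscle list, Tnnt2 was at 1.58 CPM in curcumin-treated 1, 0 in diabetes 2 and 23.6 to 53.7 CPM in the others.

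Before the limit of 1 CPM was applied, most nerve-related genes with a ratio were higher in curcumin-treated 1. These were 8 of 9 for Schwann cells and enteric glia and 13 of 17 for neurons. With no low-count filter the median log2 ratio of all genes was also negative, at −1.27. The 8 neuronal genes with over 3 counts in diabetes 2 were at a median of 91.6% of that level in curcumin-treated 1. Of the 9 glial genes, 7 were at least 4-fold higher in curcumin-treated 1 and 1 in diabetes 2. Sox10, the glial transcription factor, named after its value was seen, was at 13.3 CPM against 0. The adhesion molecule Ncam1 was at 120 against 0.118 CPM but was also at 84.8 to 119 CPM in the Gpx5-rich libraries. Scn7a, a sodium channel of glia, was at 152 CPM in diabetes 2 against 36.8 CPM. Of 18 neuronal genes only 8 passed the limit of 1 CPM, and 2 of these were at least 4-fold higher in curcumin-treated 1 and 1 in diabetes 2. Among neuronal genes, Uchl1, a ubiquitin hydrolase, stood at 21.6 against 5.91 CPM. Th and Dbh, which make noradrenaline, had 18 and 2 counts in curcumin-treated 1 and 0 in diabetes 2, where as many as 3 remained possible. Both were named after their values were seen.

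**Figure D5:**
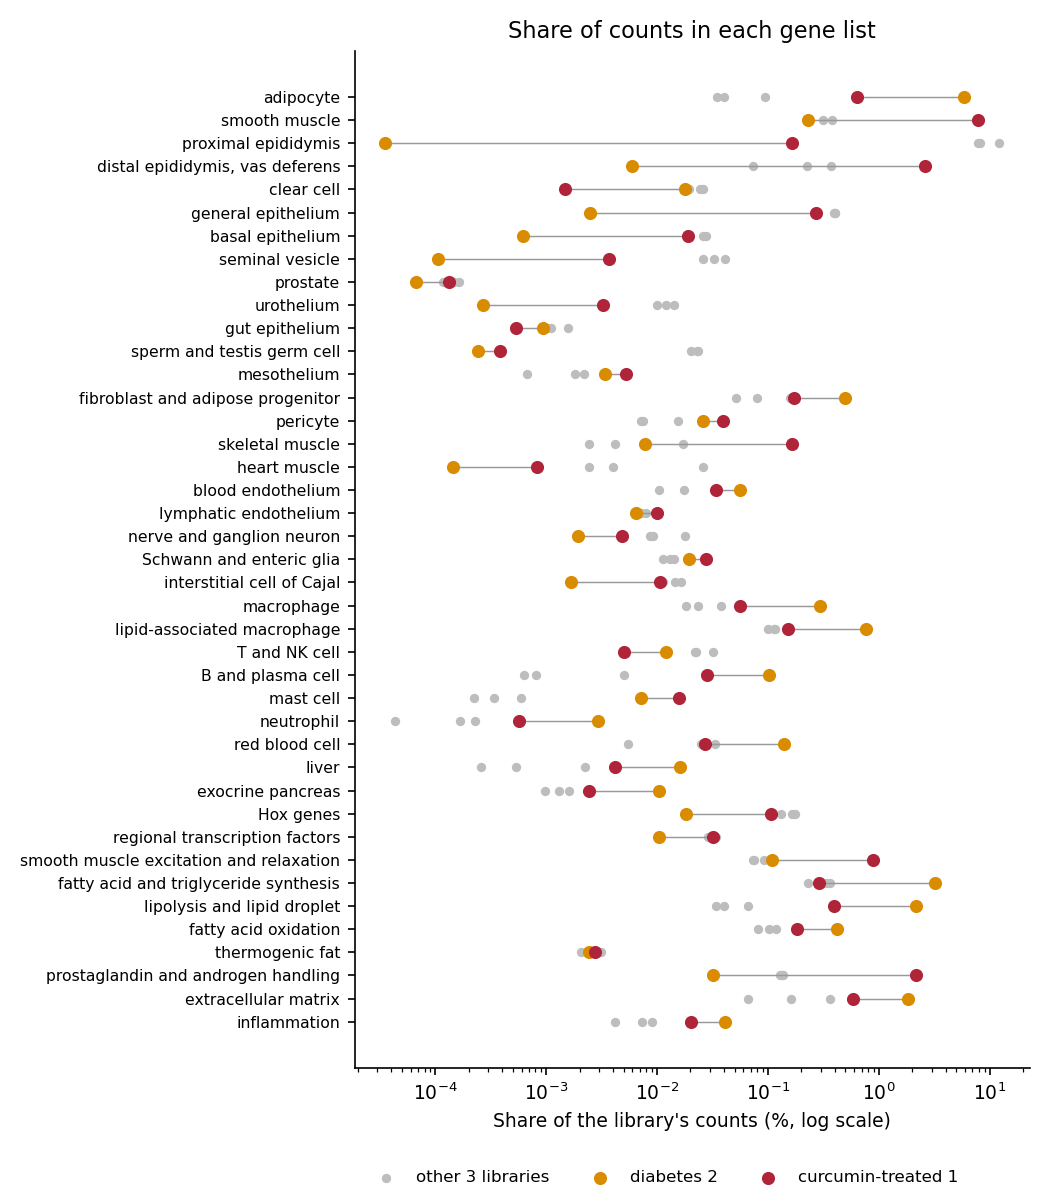
Share of each library's counts (percent, log scale) in the 41 gene lists; orange is diabetes 2, red is curcumin-treated 1, grey the other 3 libraries, and the line joins the pair. Diabetes 2 is the higher of the pair in 18 lists and curcumin-treated 1 in 23.

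Of the 10 widest ratios at 50 CPM or more in diabetes 2, only Mest was in the adipocyte list. Slc5a7, the choline transporter best known from nerve endings, was at 211 CPM in diabetes 2, 2.09 CPM in curcumin-treated 1, 0 in control 1 and diabetes 1 and 0.0471 CPM in curcumin-treated 2. Tph2, the serotonin-making enzyme of brain neurons, was at 208 against 7.69 CPM and at most 0.393 CPM elsewhere. Chat, which makes acetylcholine and was looked up after Slc5a7 was seen, was at 0 in diabetes 2. Abcd2, a peroxisomal transporter of adipocytes, stood at 590 against 21.03 CPM, Gys2, a glycogen synthase, at 52.2 against 1.80 CPM and Heph, a copper-dependent iron oxidase, at 138 against 4.85 CPM. The orphan receptor Gpr50 (110 against 3.67 CPM), the lactase-like Lctl (236 against 9.10 CPM) and Gm5627 (56.6 against 1.55 CPM) completed the 10 with Mest and Oxtr.

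In curcumin-treated 1 the 10 widest ratios held duct genes, the smooth muscle gene Actg2 and 1 gene, Sost, with no count in any other library. Sost, which encodes the Wnt inhibitor sclerostin of bone cells, was at 692 CPM there and 0 in all 4 other libraries, at least 5851-fold higher than in diabetes 2. Gm9573 was at 336 CPM there and at most 0.0370 CPM elsewhere. Anxa13, an epithelial annexin, was at 378 CPM there, 0 in diabetes 2 and 2.85 to 7.99 CPM in the others. Dpp6, a potassium channel partner, was at 328 CPM there, 0 in diabetes 2 and 0.684 to 7.55 CPM in the others. Serpina1f, a serpin, was at 1857 CPM there, 0.0788 CPM in diabetes 2 and 554 to 1446 CPM in the others. Defb42, a beta-defensin, was at 670 CPM there, 0 in diabetes 2 and 1592 to 2275 CPM in the others. Neither is in the lists. The remaining 4 were Akr1b7, Crisp1, Spink8 and Actg2.

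Levels of different genes were compared per kilobase of exon (CPM per kb). Of the listed genes of curcumin-treated 1, Akr1b7 was highest at 13953 CPM per kb, then Acta2 at 4708, Crisp1 at 4213, Myl9 at 3995 and Actg2 at 3557, and Myh11, a long transcript, came to 1756. Of the listed genes of diabetes 2, Scd1 was highest at 4854 CPM per kb, then Car3 at 3075, Cidec at 2511, the matrix protein Sparc at 2044 and Lep at 1626. Hp, which is in no list, was at 5295 CPM per kb there. Adipoq was at 1166 CPM per kb in diabetes 2 and 130 in curcumin-treated 1, where Des was at 1344. Exon lengths are those of a GRCm38 annotation and not of the authors' annotation, so these levels are approximate.

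Against the tissue on the label, diabetes 2 held adipocyte, macrophage, stromal and endothelial genes, with 7 counts of first-segment duct genes other than Gpx5, 0.00251% of counts in general epithelial genes and a smooth muscle share of 0.228%. Curcumin-treated 1 held the same adipocyte genes at a median of 10.5%, smooth muscle genes at a share 34.8-fold that of diabetes 2, general epithelial genes at a median of 60.3% of the Gpx5-rich mean, and the duct genes Akr1b7 and Crisp1 with posterior Hox genes. The part of curcumin, of the animal and of the tissue piece in these differences was not tested.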

How the data were processed

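Per the labels' protocols, RNA was extracted with a kit for lipid-rich tissue, and stranded poly-A libraries were read from both ends. The deposited table holds raw counts for 78334 Ensembl genes in 5 libraries. FastQC, featureCounts and the build GRCm39 are named in the submitters' processing notes. The sources used here do not give the aligner, the annotation release, the strand setting or the handling of multiply aligned reads. Gene IDs gave symbols for 51486 genes (65.7%).

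Counts were divided by the library total (CPM). Genes with a mean of at least 1 CPM over the pair were compared by the log2 ratio with a prior of 0.5 counts, and a 4-fold difference was counted. Plain folds are ratios of CPM with exact binomial 95% intervals; against 0 counts the limit of 3 counts gives a lower bound. Shares carry Wilson intervals. With 1 library a side no test was made. Levels between genes use union exon lengths of GENCODE M21 (GRCm38), and promoters are from the RefSeq table for GRCm38.p6; neither is the build of the counts.

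The 2 libraries, the 41 lists (518 genes) and the naming rule were chosen with earlier results of these data known. The rule names 7 marker genes, the 10 most counted genes and the 10 widest ratios of each library, up to 4 members per list by level, and all members of 6 lists. Other genes were named after their values were seen. Alternatives were TMM factors (edgeR 4.0.16) and DESeq2 1.42.0 size factors in R 4.3.3, totals without mitochondrial or the 20 most counted genes, other filters, folds and priors. Scripts used Python 3.11.15, pandas 2.3.3, NumPy 2.4.6, SciPy 1.17.1, statsmodels 0.14.6 and matplotlib 3.10.9.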

Additional observations from a re-analysis of the deposited data

How the results depend on the processing

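The counts of genes past the fold moved with the filter, the fold and the scaling. With TMM factors 1579 were higher in diabetes 2 and 2302 in curcumin-treated 1, and with DESeq2 size factors 1777 and 2160. Of genes higher in diabetes 2 (1399), there were 3693 with no low-count filter, 764 at a mean of at least 10 CPM, 3200 at 2-fold and 578 at 8-fold. Of genes higher in curcumin-treated 1 (2447), there were 16664, 992 and 4385 under the first 3 of these. The adipocyte median log2 ratio of 3.25 was 3.39 with TMM factors and 3.54 with DESeq2 size factors, which moved the median of all genes by 0.14 and 0.29; without the filter that median moved by −1.12. The adipocyte share of diabetes 2 (5.84%) was 6.10% of counts without mitochondrial genes and 1.58% without the 20 most counted genes of either library, which include list members; the smooth muscle share of curcumin-treated 1 (7.93%) was 8.34% and 1.55%. Of 321 medians over 41 lists and all settings, 316 kept their sign. Much of this was fixed in advance. The reported list medians take every member with a count, so dropping the low-count filter left them unchanged. The scalings shift every ratio by nearly the same amount, at most 0.29 at the median of all genes. The 5 that turned did so under another filter: clear cell (4.42) and mesothelium (−1.79) at 10 CPM, and gut epithelium (0.17), T and NK cells (−0.21) and thermogenic fat (−0.94) with the filter over all 5 libraries. With only members past the pair's limit of 1 CPM, clear cell (2.27), T and NK cells (−0.21) and thermogenic fat (−0.94) already turned. Under that limit mesothelium (0.13) and gut epithelium (−0.85) kept their sign. No paired analysis was possible because each side is 1 library, and for the same reason no library could be left out.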

Other observations

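Of 9 genes of B and plasma cells, 7 passed the limit of 1 CPM. Of these, 6 were higher in curcumin-treated 1 and Ighm was higher in diabetes 2. The share of counts went the other way, with 0.102% in diabetes 2, mostly as Ighm, against 0.0280% in curcumin-treated 1. The median of the 7 with over 3 counts in diabetes 2 was at 575% in curcumin-treated 1. Ighm, the constant region of IgM, was at 1005 CPM in diabetes 2, 208 in curcumin-treated 1, 5.55 in control 1, 2.04 in diabetes 1 and 20.3 in curcumin-treated 2. The other 6 that passed the limit were low in diabetes 2 and higher in curcumin-treated 1: the receptor subunit Cd79a was at 0.749 against 4.96 CPM and the antibody joining chain Jchain at 5.67 against 32.6 CPM. Igkc, the kappa light chain, had at most 1 count in any library. The cytokine receptor Il7r, known from lymphocytes, was at 79.4 in diabetes 2 and 3.95 CPM in curcumin-treated 1, while the T cell genes Cd3e and Cd3d were at 2.32 and 1.54 CPM in diabetes 2 and at 3.20 and 2.91 CPM in curcumin-treated 1. These genes, Ighm and Jchain apart, were named after their values were seen, except Il7r. How reads shared between immunoglobulin genes were counted is not stated.

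Atp6v0d2, a proton pump subunit of osteoclasts, macrophages and clear cells, was 1 of 2 clear cell genes, with the carbonic anhydrase Car2, that were at least 4-fold higher in diabetes 2, of 3 that passed the limit of 1 CPM. It was at 176 CPM in diabetes 2, 8.20 in curcumin-treated 1, 80.7 in control 1, 79.1 in diabetes 1 and 54.3 in curcumin-treated 2. Blood genes were higher in diabetes 2, where the globins Hba-a1 and Hba-a2, near-identical copies whose reads cannot be told apart, were at 382 and 446 CPM, against 84.8 and 96.0 CPM in curcumin-treated 1. The serum amyloid Saa3, made by fat and macrophages, was at 119 against 30.5 CPM and at most 0.401 CPM in the other libraries. Abcg2, a membrane efflux pump, and Ank1, an ankyrin that also anchors the muscle calcium store, both named after their values were seen, were at 1174 and 1105 CPM in curcumin-treated 1 and at most 22.0 and 2.22 CPM in the other libraries.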
